A study of Mus musculus with 12 samples.

Results

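Gene expression was compared between 3 libraries labelled NOTCHWT_TCFKO and 3 labelled NICD_TCFWT, 6 of the 12 samples of the series, all from Lin- Sca1+ cKit+ (LSK) cells of mouse bone marrow. The pair was chosen by its low level of Dtx1, a gene that Notch signalling induces, which was near 0 in both groups and high in the other 6 samples. The cells labelled NICD_TCFWT carried R26 N1IC lox/+ and Mx1Cre and were sorted as CD45.2+ eGFP+ LSK. Those labelled NOTCHWT_TCFKO carried Tcf7 lox/lox and Mx1Cre and were sorted as LSK without the gate on CD45.2 and eGFP. Mx1Cre, its induction with 2 ug/g poly(I:C), the background C57BL/6J; Sv/129 and batch 1 were common to both. The groups therefore differ in the N1IC allele, the lox-flanked Tcf7 alleles and the sort gate at the same time, and these cannot be told apart. Neither the age of the mice nor whether replicates came from separate mice is given in the sources used here. The p-values measure the spread between these libraries, part of which may be technical. Sex-linked RNA, given below, differed between libraries of the same group in both groups, so neither group came from a single mouse. Titles name the libraries labelled NICD_TCFWT RNIC-CTRL and those labelled NOTCHWT_TCFKO Tcf7-Tg. The other 6 samples, 3 labelled NOTCHWT_TCFWT (wild type, same poly(I:C) dose, LSK gate) and 3 labelled NICD_TCFKO (R26 N1IC lox/+ Tcf7 lox/lox Mx1Cre, CD45.2+ eGFP+ gate), enter the fit and serve as a reference range.

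LSK cells are the marrow fraction in which stem cells and the earliest multipotent progenitors of blood are found. Notch1 is a surface receptor whose intracellular domain (N1IC) moves to the nucleus and activates transcription together with RBPJ, and Tcf7 encodes TCF-1, a factor that Notch induces when progenitors enter the T lineage. Mx1Cre is driven by an interferon-inducible promoter, so poly(I:C) both induces the recombinase and provokes an interferon response. Resident macrophages of the marrow, the cell type whose genes led this comparison, engulf dying cells and expelled erythroblast nuclei, recycle haem iron and hold progenitors in place through the adhesion molecule VCAM-1.

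In NICD_TCFWT 1 to 3 Tcf7 was at 5.05, 4.68 and 6.76 CPM (counts scaled to a common library size by TMM) and in NOTCHWT_TCFKO 1 to 3 at 0.819, 2.76 and 0.267 CPM. The groups did not overlap, but the difference did not pass the test (log2 fold change -2.11 ± 0.68 SE, edgeR adjusted p = 0.124). All 6 lay below the other 6 libraries (10.5 to 896 CPM), whose highest values stood in libraries labelled as Tcf7-deleted. The counts are per gene and the lox-flanked exons are not given in the sources used here, so the level does not check the deletion. Notch1 was at 195, 188 and 157 against 145, 104 and 197 CPM, overlapping ranges that did not pass (-0.27 ± 0.21, adjusted p = 0.478) and that lay below the 541 to 887 CPM of the others. Dtx1, by which the pair was selected, was at 0.0543, 0.154 and 0.162 CPM in NICD_TCFWT and at 0.0793, 0.425 and 0.121 CPM in NOTCHWT_TCFKO, against 64.7 to 165 CPM elsewhere. Dtx1 was thus near 0 in libraries labelled with N1IC, a level by which the pair was chosen. Whether the labels match the samples was not tested, so every direction below is one between libraries so labelled.

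The transcript of the R26 locus itself, Gt(ROSA)26Sor, into which N1IC is inserted per the labels, was at 4.97, 5.12 and 5.38 CPM in NICD_TCFWT and at 13.3, 11.7 and 13.6 CPM in NOTCHWT_TCFKO. It was higher in every library labelled NOTCHWT_TCFKO than in any other of the series (2.02 to 8.96 CPM in the other 6; 1.32 ± 0.16, adjusted p = 0.00137); it was picked for the locus after its values were seen. The neighbouring genes Setd5 (0.04 ± 0.05, adjusted p = 0.652) and Thumpd3 (0.11 ± 0.09, adjusted p = 0.473) did not pass.

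**Figure D1:**
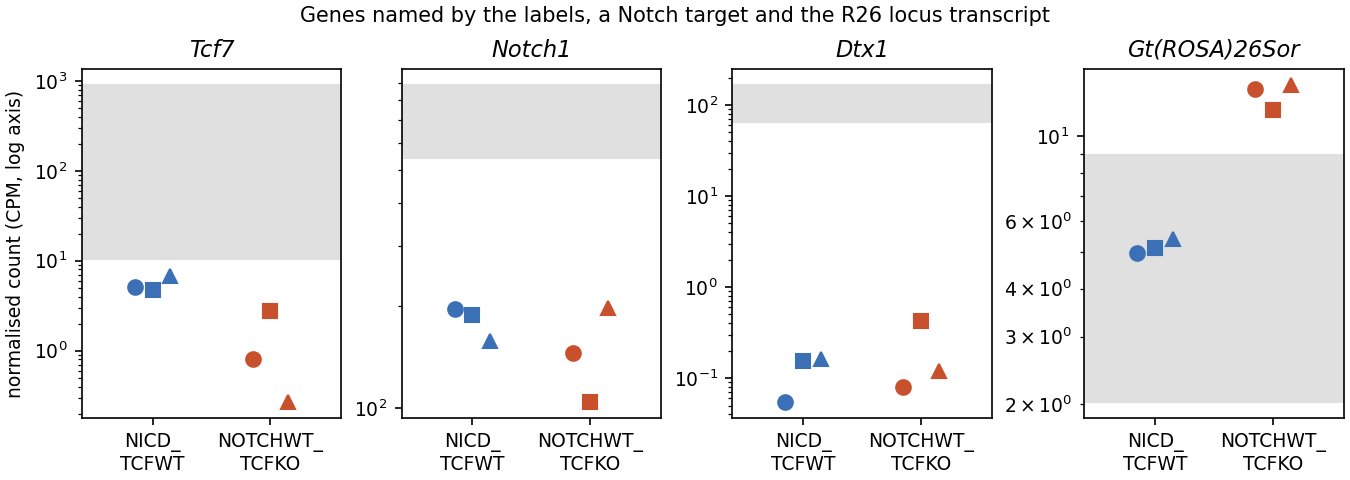
Normalised counts (CPM, log axes) of Tcf7, Notch1, Dtx1 and Gt(ROSA)26Sor in libraries labelled NICD_TCFWT (blue) and NOTCHWT_TCFKO (red); circle, square and triangle are replicates 1, 2 and 3, and the grey band spans the other 6 libraries. Dtx1 and Notch1 overlap between the groups and lie below the band, whereas Gt(ROSA)26Sor is at 11.7 to 13.6 CPM in NOTCHWT_TCFKO, above all others.

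Total counts were 30453271 to 43790674 per library. Log2 levels correlated at 0.971 to 0.985 within NICD_TCFWT, 0.943 to 0.976 within NOTCHWT_TCFKO and 0.904 to 0.966 between the groups (Pearson's r across genes, which are not replicates). RNA of both sexes was present in NOTCHWT_TCFKO 1 (Xist 2160 CPM, Y-linked genes 157 CPM in sum). NOTCHWT_TCFKO 2 and NICD_TCFWT 3 were Xist-high with at most 1.33 CPM of Y-linked transcripts, and the remaining 3 held 311 to 339 CPM of Y-linked transcripts. Of the 16024 genes tested 460 passed an adjusted p under 0.05 (2.87%; these are called below): 214 were higher (1.34%) and 246 lower (1.54%) in NOTCHWT_TCFKO, 104 and 154 of them by at least 2-fold. At an unadjusted p under 0.05, 1836 genes (11.5%) were higher and 1686 (10.5%) lower. Counts of list members below are to be read beside these shares. The 3 libraries of one group lay wholly above or below the other 3 for 2170 higher (13.5%) and 2277 lower genes (14.2%), and for all 460 called genes.

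The number of calls depended on single libraries. Without NOTCHWT_TCFKO 3 there were 1097 higher and 968 lower calls, including 214 of the 214 and 243 of the 246. Leaving out any other library reduced both counts by over 1.5 times: to 86 and 99 without NOTCHWT_TCFKO 1, 78 and 109 without NOTCHWT_TCFKO 2, and 65 and 96, 79 and 122, or 103 and 138 without NICD_TCFWT 1, 2 or 3. In every one of these 6 fits 56 higher and 86 lower genes stayed called.

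**Figure D2:**
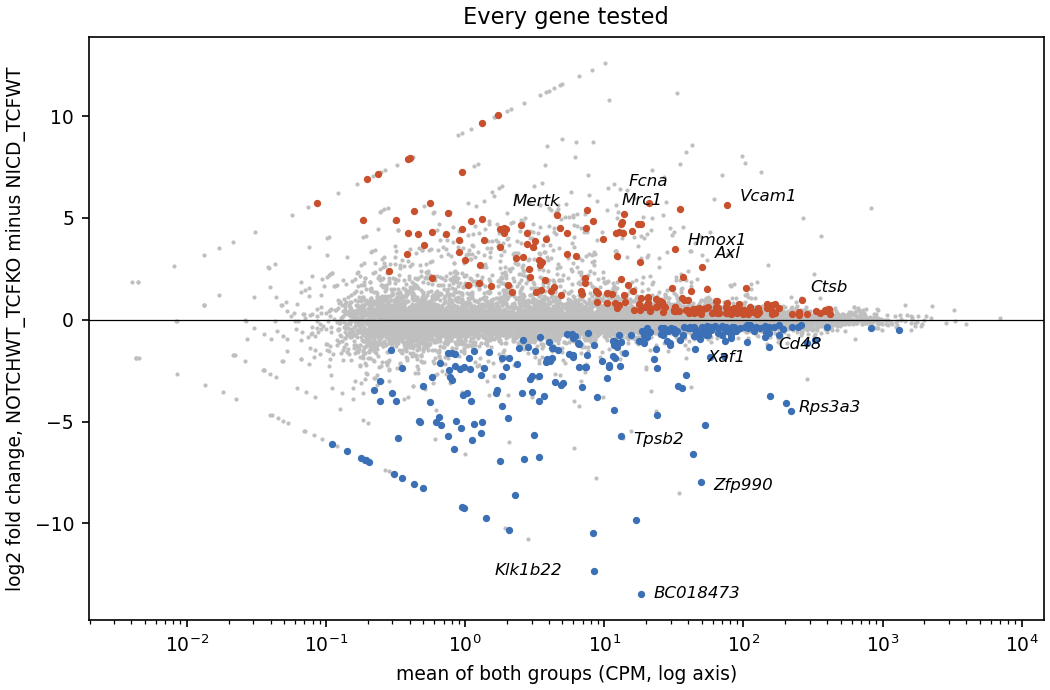
Log2 fold change (NOTCHWT_TCFKO minus NICD_TCFWT) of each of the 16024 tested genes against its mean level in both groups (CPM, log axis); red genes (214) are called higher, blue (246) lower and grey are not called. Macrophage genes such as Vcam1 and Mrc1 lead the higher side, and the diagonal lines of points are genes with no count in one group, whose fitted change depends on the prior count.

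Resident macrophage genes were the group that rose most broadly. Of 32 listed genes 18 rose and 0 fell; the other 14 comprised 10 that did not pass and 4 that were too low to be tested. None was lower at an unadjusted p under 0.05 or in DESeq2 or limma-voom (0 each), and 25 were higher at that unadjusted p. Over the 28 tested members the median log2 fold change was 3.19, beside -0.01 over all tested genes; 5 of the 28 passed the low-count filter only through the libraries labelled NOTCHWT_TCFKO, so that the median describes these members and supports nothing more. Of the 18 called genes 17 were higher in each library labelled NOTCHWT_TCFKO than in all 9 others, the exception being the transcription factor gene Maf. The gate differed between the groups. The 9 others include the libraries labelled NOTCHWT_TCFWT, which like NOTCHWT_TCFKO had the LSK gate without CD45.2 and eGFP. These held 1.12 to 1.53 CPM of Vcam1 and 0.07 to 0.198 CPM of Mrc1. The part of the gate in the difference was not tested. More macrophages and more macrophage RNA per cell cannot be told apart in bulk samples.

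Engulfment and scavenger receptors were among the largest changes. Mertk, the receptor tyrosine kinase that triggers engulfment of apoptotic cells, was at 0.244, 0.231 and 0.568 CPM in NICD_TCFWT and at 15.9, 15.4 and 12.8 CPM in NOTCHWT_TCFKO (5.39 ± 0.43, adjusted p = 8.42e-05). Its relative Axl was at 19.2, 13.6 and 9.9 against 83.4, 95.3 and 82.8 CPM (2.61 ± 0.34, adjusted p = 0.00261). The 3 NOTCHWT_TCFKO libraries differed little from each other in both genes and stood far above the NICD_TCFWT libraries. Mrc1, the mannose receptor, was at 0.679, 1.29 and 2.71 against 71.1, 77.9 and 55 CPM (5.45 ± 0.54, adjusted p = 0.000455), and no other library of the series exceeded 0.722 CPM. Siglec1, the sialic acid receptor CD169, changed by 4.79 ± 0.66 (adjusted p = 0.00361). Cd163, the scavenger receptor for haemoglobin bound to haptoglobin, was at 4.42, 4.71 and 4.14 against 23.4, 42.4 and 30.2 CPM (2.85 ± 0.21, adjusted p = 5.72e-05). Timd4, a receptor for phosphatidylserine, was at 0, 0.103 and 0.216 against 1.32, 3.19 and 1.43 CPM and did not pass (adjusted p = 0.0671).

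Secreted and complement proteins of macrophages moved in the same direction. Fcna, which encodes the complement-activating lectin ficolin A and had the largest increase of the genes chosen by size, was at 0.271, 0.797 and 1.24 CPM in NICD_TCFWT and at 36, 49.7 and 37.6 CPM in NOTCHWT_TCFKO (5.73 ± 0.48, adjusted p = 0.000112). Cd5l, a protein that macrophages secrete to support their own survival, was at 0.38, 0.669 and 1.14 against 28.2, 30.7 and 21.8 CPM (5.20 ± 0.48, adjusted p = 0.000238), and the other 6 libraries were at 0 to 0.0242 CPM. For both genes the lowest library labelled NOTCHWT_TCFKO was far above the highest of NICD_TCFWT. The 3 chains of C1q, the recognition part of the classical complement pathway, rose together: C1qa by 4.69 ± 0.51, C1qb by 4.36 ± 0.77 and C1qc by 4.69 ± 0.59 (adjusted p = 0.000707, 0.0161 and 0.00208). Apoe, the lipid carrier, was at 33.3, 50.4 and 73.2 against 132, 174 and 161 CPM (1.57 ± 0.27, adjusted p = 0.0138). Cfp, which encodes properdin, a stabiliser of the alternative complement pathway, was the called gene of 24 complement, pattern recognition and inflammation genes (1.08 ± 0.22, adjusted p = 0.0257), with 0 lower and 6 higher at an unadjusted p under 0.05. DESeq2 called 1 higher and limma-voom 3. Of the 24 genes 18 were tested. Among these 5 passed the low-count filter only through the libraries labelled NOTCHWT_TCFKO, so the counts describe the list and support nothing more. The call of Cfp was lost without any one of the NICD_TCFWT libraries and without NOTCHWT_TCFKO 2 (adjusted p up to 0.0954).

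Vcam1, the adhesion molecule by which marrow macrophages hold progenitors, was at 1.33, 2.73 and 5.03 CPM in NICD_TCFWT and at 153, 182 and 112 CPM in NOTCHWT_TCFKO (5.62 ± 0.60, adjusted p = 0.00105). In the other 6 libraries it stayed between 0.387 and 2.04 CPM. Adgre1, the F4/80 antigen of macrophages, was at 0.489, 0.797 and 2.33 against 21.7, 30.2 and 17.8 CPM (4.27 ± 0.81, adjusted p = 0.0226). Within NICD_TCFWT both genes were highest in replicate 3. The calls of Adgre1 and 5 other genes of the list (Apoe, C1qb, Sirpa, Cd68 and Tlr4) were lost without at least 1 library, with adjusted p up to 0.189.

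Transcription factors of the lineage were called as well. Maf was at 1.98, 3.78 and 2.76 against 13, 10.4 and 11.4 CPM (2.03 ± 0.26, adjusted p = 0.00208), but the other 6 libraries reached 11.9 CPM, so that the NICD_TCFWT libraries were the low ones. Spic, the factor that directs red pulp and marrow macrophages to haem recycling, was at 3.31, 2.93 and 3.3 against 12.2, 10.3 and 11.4 CPM (1.83 ± 0.18, adjusted p = 0.000316). Spi1, which encodes the general myeloid factor PU.1, did not pass (-0.04 ± 0.12, adjusted p = 0.87). The defining markers Marco (0 counts in NICD_TCFWT) and Vsig4 were at 0.121 to 0.77 CPM in NOTCHWT_TCFKO, and with Folr2 and Gpnmb they were too low to be tested. Each of the 32 members had a count in all 3 libraries labelled NOTCHWT_TCFKO.

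**Figure D3:**
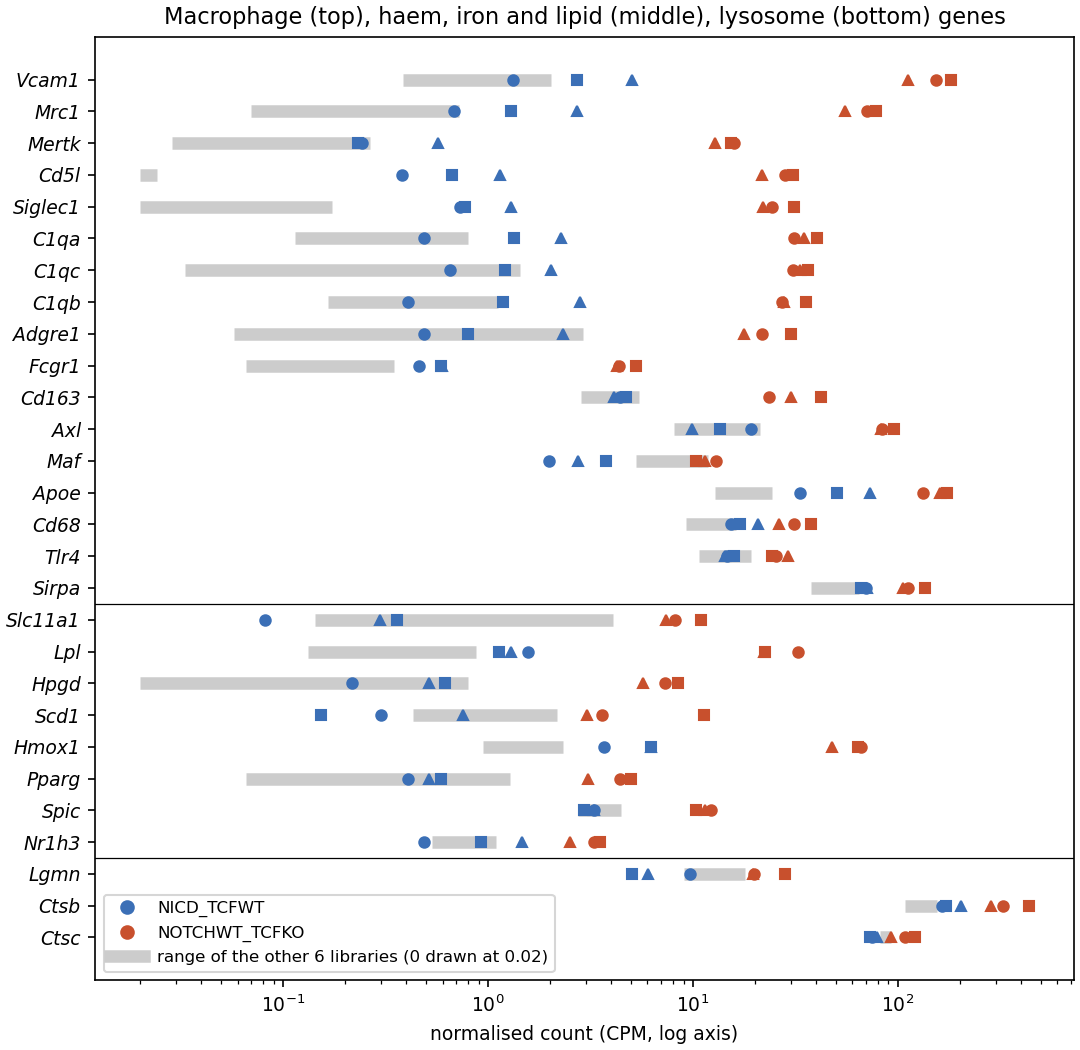
Levels (CPM, log axis) of called macrophage, haem, iron and lipid, and lysosome genes in libraries labelled NICD_TCFWT (blue) and NOTCHWT_TCFKO (red); circle, square and triangle are replicates 1, 2 and 3 and grey bars span the other 6 libraries. The 3 red points lie above the 3 blue points in each row, and above the grey bar in every row except Maf. For Ctsc the NOTCHWT_TCFKO 3 value of 92.9 CPM is drawn level with the top of its bar by rounding, and before rounding it was above.

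Genes that handle haem, iron and lipid rose in 8 of 20 cases and fell in 0 (median log2 fold change 1.76, beside -0.01 for all tested genes). Of the 20, 1 passed the low-count filter only through the libraries labelled NOTCHWT_TCFKO. At an unadjusted p under 0.05 the list held 13 higher and 1 lower gene, while DESeq2 and limma-voom called 0 lower. Hmox1, the oxygenase that opens the haem ring, was at 3.69, 6.27 and 6.25 CPM in NICD_TCFWT and at 66.4, 63.9 and 47.8 CPM in NOTCHWT_TCFKO (3.46 ± 0.31, adjusted p = 0.000166). Slc40a1, the iron exporter ferroportin, reached no more than 10.8 CPM in NICD_TCFWT, in replicate 3, and was at 116, 138 and 75.1 CPM in NOTCHWT_TCFKO, a separation that did not pass (4.32 ± 1.08, adjusted p = 0.0665) and passed without NOTCHWT_TCFKO 3 (adjusted p = 0.0441). The lipid side held Lpl, the lipoprotein lipase (4.27 ± 0.40, adjusted p = 0.000238), Pparg, a lipid-activated nuclear receptor (3.03 ± 0.46, adjusted p = 0.00539), and Nr1h3, the oxysterol receptor LXR alpha (1.69 ± 0.37, adjusted p = 0.0387). Slc11a1, a metal transporter of phagosomes, was at 0.0814, 0.36 and 0.298 against 8.22, 11 and 7.37 CPM (5.15 ± 0.92, adjusted p = 0.0161). The 8 calls became 4 without NICD_TCFWT 1, 4 without NICD_TCFWT 2, 5 without NOTCHWT_TCFKO 1 and 5 without NOTCHWT_TCFKO 2. Erythroid transcripts, given further on, were highest in NOTCHWT_TCFKO 2, as were 12 of these 20 genes and their sum (1540, 1460 and 1490 CPM in NICD_TCFWT and 2040, 2640 and 1670 CPM in NOTCHWT_TCFKO); the part of erythroid RNA in the difference was not tested.

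Of 20 lysosome genes 3 rose and 0 fell: Ctsb, the protease cathepsin B, from 164, 172 and 203 to 325, 438 and 284 CPM (0.96 ± 0.14, adjusted p = 0.00465), Lgmn, the asparaginyl protease legumain (1.71 ± 0.29, adjusted p = 0.012), and Ctsc, cathepsin C (0.51 ± 0.09, adjusted p = 0.0161). The median over 19 tested members was 0.29, and 9 were higher and 0 lower by the unadjusted p (under 0.05). None was lower in DESeq2 or limma-voom (0 each). Without NOTCHWT_TCFKO 3 the count was 11, without NICD_TCFWT 2 it was 1 and in a fit of the 6 libraries alone it was 1.

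Of the 12 higher genes chosen by size, 8 were members of the macrophage list. The others were Fcna, Col14a1, Eps8l1 and Kcnj10. Col14a1, a collagen that associates with fibrils, was at 0.461, 0.411 and 0.758 against 14.1, 19.8 and 14 CPM (4.87 ± 0.39, adjusted p = 8.42e-05). Kcnj10, an inwardly rectifying potassium channel, was at 0.299, 0.463 and 1.08 against 14.3, 16.4 and 11.9 CPM (4.53 ± 0.56, adjusted p = 0.00146). Eps8l1, a regulator of actin, was at 0.57, 0.746 and 1.6 against 27.1, 24.3 and 25 CPM (4.71 ± 0.51, adjusted p = 0.000656), with up to 6.43 CPM in the other libraries. For all 3 the libraries labelled NOTCHWT_TCFKO lay above the other 9.

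Promoter letters are shown for named or called genes because the factors named by the labels, and the macrophage factors PU.1 and Spi-C, bind short known motifs. Promoters (250 bases before to 50 after the start; RefSeq, build GRCm38.p6, the sequence of mm10) were searched on both strands for GAGGAAGT (PU.1/Spi-C), CTTTGAA or CTTTGAT (TCF/LEF), GTGGGAA (RBPJ), TTGCGCAA (C/EBP) and GAAANNGAA (interferon response), where matches may overlap. Of 55 named or called list genes 33 had an entry. Capitals mark the matched letters, with 30 bases on each side, on the strand of the gene.
C1qc, chr4:136893072-136893139, minus strand: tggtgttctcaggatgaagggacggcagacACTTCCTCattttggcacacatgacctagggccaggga
Ctsc, chr7:88277904-88277971, plus strand: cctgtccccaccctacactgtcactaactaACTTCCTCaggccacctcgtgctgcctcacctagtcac
Mrc1, chr2:14229254-14229320, plus strand: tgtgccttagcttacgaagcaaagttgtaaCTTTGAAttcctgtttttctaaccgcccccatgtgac
Cxcl9, chr5:92328216-92328284, minus strand: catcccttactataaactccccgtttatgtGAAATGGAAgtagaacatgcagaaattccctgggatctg

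The PU.1/Spi-C letters stood, on the reverse strand, in the promoters of C1qc and Ctsc, both called higher, and also at the start of Zfp534, called lower. The TCF/LEF letters stood 130 bases before the start of Mrc1, and also 204 bases before that of Clip4 and 98 before that of Oas1a, both called lower. Over all 195 promoters of called higher genes the PU.1/Spi-C letters stood in 4.1%, over the 170 of called lower genes in 3.53% and over the 13987 of all tested genes in 3.24%. The TCF/LEF letters were in 6.15, 7.06 and 6.08%, the RBPJ letters in 7.69, 8.82 and 6.16%, and the interferon letters in 11.3, 8.24 and 7.51% in the same order. The C/EBP letters were in 0, 0 and 0.257%. A match describes the letters in this window and is not evidence of a bound site.

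Genes of mature blood cells were uneven between the libraries labelled NOTCHWT_TCFKO. Summed over 20 neutrophil granule genes, the level was 1720, 2800 and 6340 CPM in NICD_TCFWT and 7530, 11600 and 1620 CPM in NOTCHWT_TCFKO. The groups overlapped, with NOTCHWT_TCFKO 3 the lowest of the 6. None of the 20 passed in edgeR or limma-voom (0 each), DESeq2 called 1 higher, and 10 were higher and 0 lower by the unadjusted p (under 0.05) (median 3.82, and 1.19 without NOTCHWT_TCFKO 2). Of the 20, 1 passed the low-count filter only through the libraries labelled NOTCHWT_TCFKO. S100a9, a calcium-binding protein of neutrophils, was at 0.163, 0.334 and 4.76 against 4.23, 792 and 7.44 CPM (7.26 ± 2.81, adjusted p = 0.181), so that a single library carried the difference. Elane, neutrophil elastase of early granulocytes, was at 8.93, 12.9 and 307 against 690, 828 and 71.6 CPM, and Mpo, myeloperoxidase, at 1250, 2160 and 4680 against 5080, 5340 and 949 CPM. Both showed NICD_TCFWT 3 with NOTCHWT_TCFKO 1 and 2 on the high side, and NOTCHWT_TCFKO 3 with NICD_TCFWT 1 and 2 on the low side.

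Erythroid genes summed to 786, 750 and 878 CPM in NICD_TCFWT and to 1300, 3780 and 961 CPM in NOTCHWT_TCFKO. All 19 members found were highest in NOTCHWT_TCFKO 2. Slc4a1, the anion exchanger of the red cell membrane, was at 0.109, 1.21 and 4.57 against 3.09, 355 and 4.15 CPM (5.94 ± 2.45, adjusted p = 0.203). None of the list was called in edgeR or limma-voom (0 each), DESeq2 called 2 higher, and 6 were higher and 0 lower by the unadjusted p (under 0.05). Its median was 3.2, and 1.09 without that library.

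Plasma cell genes gave the widest spread, at 129, 96.1 and 240 CPM against 565, 6390 and 332 CPM in sum. Igha, the constant region of immunoglobulin A, was at 33.4, 8.46 and 64.6 CPM in NICD_TCFWT and at 310, 4380 and 146 CPM in NOTCHWT_TCFKO (5.51 ± 2.10, adjusted p = 0.176). The groups did not overlap, yet most of the distance lay in NOTCHWT_TCFKO 2. None of 10 tested plasma cell genes was called in edgeR or limma-voom (0 each), DESeq2 called 5 higher, and 6 were higher and 0 lower by the unadjusted p (under 0.05). Of 18 B lineage genes 1 rose, Bank1, an adaptor of B cell receptor signalling, from 1.87, 0.54 and 0.866 to 4.31, 4.17 and 5.77 CPM (2.12 ± 0.44, adjusted p = 0.0295). Its call was lost without NICD_TCFWT 2 or 3 or NOTCHWT_TCFKO 1 or 2 (adjusted p up to 0.0961). At an unadjusted p under 0.05 the list held 6 higher and 0 lower genes, while DESeq2 called 5 higher and limma-voom 1. Summed B lineage genes were at 310, 269 and 476 CPM in NICD_TCFWT and at 404, 2320 and 531 CPM in NOTCHWT_TCFKO. Their median log2 fold change was 1.9, and 0.88 without NOTCHWT_TCFKO 2. Of the 17 tested B lineage genes 4 passed the low-count filter only through the libraries labelled NOTCHWT_TCFKO. Summed macrophage genes were also highest in NOTCHWT_TCFKO 2 (1440 CPM, against 1050 and 955 CPM in NOTCHWT_TCFKO 1 and 3, and 234 to 378 CPM in NICD_TCFWT), while without it 12 macrophage genes were called, against 18 with all libraries, 14 without NOTCHWT_TCFKO 1 and 12 without NICD_TCFWT 2. The part that mature cells play in the macrophage difference was not tested.

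**Figure D4:**
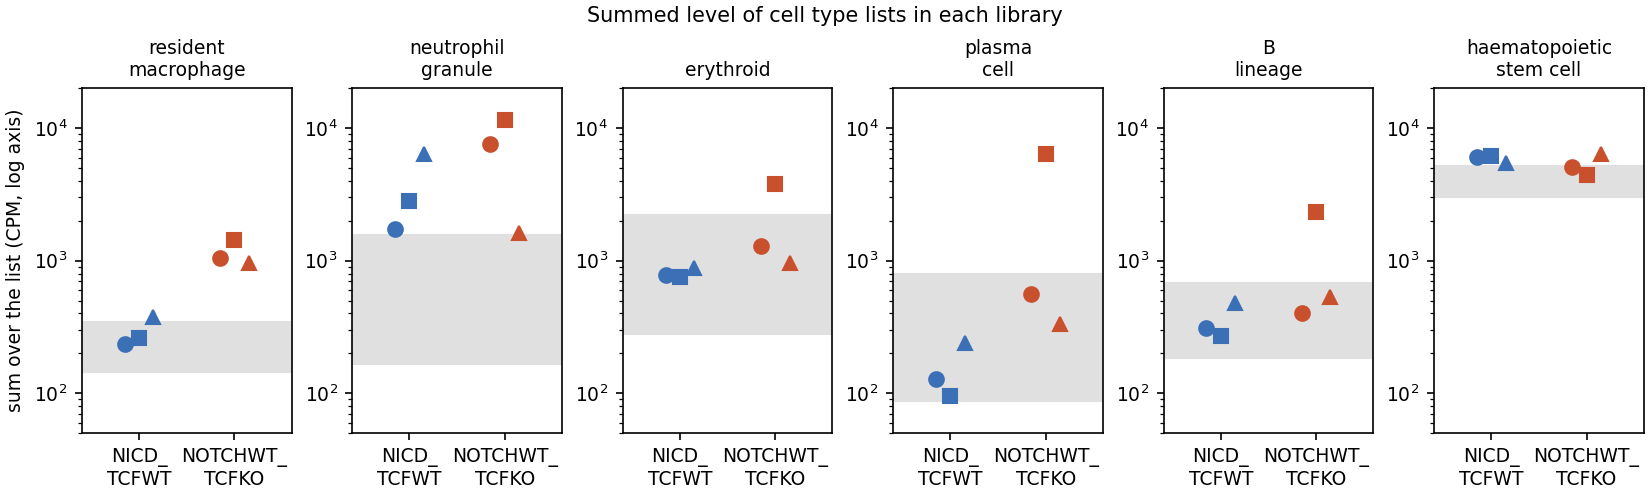
Summed level (CPM, log axes) of 6 cell type lists in each library labelled NICD_TCFWT (blue) and NOTCHWT_TCFKO (red); circle, square and triangle are replicates 1, 2 and 3, and the grey band spans the other 6 libraries. Macrophage genes are separated in all 3 libraries (955 to 1440 against 234 to 378 CPM), whereas erythroid and plasma cell genes peak in NOTCHWT_TCFKO 2 alone and stem cell genes overlap.

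The stem and progenitor genes that define the sorted cells differed far less. Kit, a receptor used in the gate, was at 762, 847 and 751 CPM in NICD_TCFWT and at 774, 684 and 978 CPM in NOTCHWT_TCFKO (0.05 ± 0.12, adjusted p = 0.853). Ly6a, which encodes the gate antigen Sca1, was at 87.9, 79.4 and 51.8 against 33.1, 33.7 and 45.9 CPM; the groups did not overlap and the difference did not pass (-0.96 ± 0.24, adjusted p = 0.0641). Slamf1, the stem cell antigen CD150, was at 23.3, 18.5 and 17 against 7.9, 5.95 and 6.13 CPM (-1.56 ± 0.40, adjusted p = 0.0642). Of 32 stem cell genes 0 were called in edgeR, 2 were lower and 0 higher at an unadjusted p under 0.05, DESeq2 called 2 lower and limma-voom 1 lower (median -0.26). Without NICD_TCFWT 3 or NOTCHWT_TCFKO 3 edgeR called 1 of them lower. Summed stem cell genes were at 5480 to 6180 CPM against 4470 to 6380 CPM, with NOTCHWT_TCFKO 3 the highest and NOTCHWT_TCFKO 2 the lowest of the 6.

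Among 18 lymphoid-primed progenitor genes 1 fell, beside 1.54% of all tested genes. This was Cd48, an adhesion antigen gained as stem cells become progenitors, at 170, 221 and 166 CPM in NICD_TCFWT and at 113, 98.1 and 98.5 CPM in NOTCHWT_TCFKO (-0.84 ± 0.17, adjusted p = 0.0249). The call was lost without NICD_TCFWT 1 or 2 or NOTCHWT_TCFKO 1 or 2 (adjusted p up to 0.11). Flt3, the cytokine receptor of these progenitors, was at 570, 559 and 515 against 400, 280 and 656 CPM (-0.30 ± 0.29, adjusted p = 0.57). NOTCHWT_TCFKO 3 was above and replicates 1 and 2 below all libraries labelled NICD_TCFWT. Il7r, the interleukin 7 receptor, was at 4.37, 2.29 and 7.63 against 10.3, 11.3 and 15.9 CPM and did not pass (1.39 ± 0.49, adjusted p = 0.145).

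Few single genes of the Notch, TCF and T lineage lists passed the test. Over all tested genes 1.34% were called higher and 1.54% lower, with 11.5% and 10.5% at an unadjusted p under 0.05. The 16 Notch target genes include Dtx1, by whose low level the pair was chosen, so that its low level here is no result. Of the 16, 0 were called in edgeR or limma-voom, DESeq2 called 1 higher and 1 lower, and 1 was higher and 1 lower by the unadjusted p (under 0.05). Summed, they were at 522, 526 and 540 CPM in NICD_TCFWT and at 450, 408 and 445 CPM in NOTCHWT_TCFKO, without overlap. Notch3, a receptor gene that Notch induces, was at 4.8, 3.5 and 3.6 against 0.925, 1.51 and 2.38 CPM (-1.30 ± 0.40, adjusted p = 0.106). Of 22 Notch receptors, ligands and machinery genes 0 were called in edgeR, DESeq2 or limma-voom (unadjusted p under 0.05: 1 higher, 2 lower); Mfng, a glycosyltransferase that modifies Notch receptors, was at 177, 162 and 141 against 94.8, 88.2 and 148 CPM (adjusted p = 0.166). Of 26 T cell receptor and signalling genes 0 were called in edgeR, against 3 higher in DESeq2 and 1 higher in limma-voom, and 2 lay on each side at an unadjusted p under 0.05; Ptcra, the pre-T cell receptor chain, had 0 counts in all 6 libraries. Of 18 T lineage commitment regulators 0 were called in edgeR or limma-voom, 1 was higher in DESeq2, and 2 were higher and 3 lower by the unadjusted p (under 0.05). Among TCF/LEF factors, co-repressors and Wnt targets 1 of 20 rose: Tle1, a Groucho co-repressor that binds TCF factors, from 10.3, 10.2 and 9.93 to 17.1, 17 and 20.6 CPM (0.85 ± 0.18, adjusted p = 0.0322; the call was lost without any library of the 6 but NOTCHWT_TCFKO 3, at up to 0.115). Without NOTCHWT_TCFKO 3, 2 Notch targets and 1 gene each of the other 4 lists of this paragraph were called lower.

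Interferon-stimulated genes fell in 2 of 30 cases and rose in 0, beside 1.54% lower and 1.34% higher over all tested genes. Xaf1, an interferon-induced promoter of apoptosis, was at 63.4, 78.1 and 57 CPM in NICD_TCFWT and at 26.3, 19.6 and 27.1 CPM in NOTCHWT_TCFKO (-1.44 ± 0.17, adjusted p = 0.00105). Oas1a, a sensor of double-stranded RNA, was at 40, 46.1 and 32.7 against 24.7, 23.7 and 26.7 CPM (-0.66 ± 0.12, adjusted p = 0.0187). The members next in order of p, Mx2, Oasl1, Usp18 and Ly6a, had log2 fold changes of -1.02 to -0.84 at adjusted p of 0.0528 to 0.0641. At an unadjusted p under 0.05 the list held 10 lower and 2 higher genes, beside 10.5% lower and 11.5% higher over all tested genes. DESeq2 called 9 lower and 0 higher (median -0.24). The 2 lower calls became 7 without NICD_TCFWT 3 and 5 without NOTCHWT_TCFKO 3. They became 1, with Oas1a lost, without NICD_TCFWT 1 or 2 or NOTCHWT_TCFKO 1 or 2. Every library received poly(I:C) at 2 ug/g, and the time from injection to sorting is not given in the sources used here.

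Chemokine genes and NK and innate lymphoid genes gave few calls, beside 1.34% called higher and 1.54% lower over all tested genes. Ccr2, a receptor that draws monocytes out of the marrow, was at 424, 448 and 648 CPM in NICD_TCFWT and at 45, 144 and 13.1 CPM in NOTCHWT_TCFKO, without overlap but short of the threshold (-2.91 ± 0.74, adjusted p = 0.0681; 0.0308 without NOTCHWT_TCFKO 3). Cxcl9, an interferon-gamma-induced chemokine, rose from 0.163, 0.257 and 0.595 to 3.17, 1.83 and 1.7 CPM (2.71 ± 0.62, adjusted p = 0.0452). Of 26 chemokines and receptors, 20 of them tested, Cxcl9 was the gene that rose, and its call was lost without NICD_TCFWT 1 or 2 or NOTCHWT_TCFKO 1 or 2 (adjusted p up to 0.179). Klrb1c, the NK1.1 antigen, was the called gene of 18 NK and innate lymphoid genes and fell from 9.64, 9.49 and 17.9 to 1.96, 3.82 and 1.65 CPM (-2.32 ± 0.51, adjusted p = 0.0398; the call was lost without any library of the 6 but NOTCHWT_TCFKO 3, at up to 0.161).

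Of the mast cell and basophil genes a single tryptase gene fell in edgeR. Tpsb2 was at 30.5, 28.9 and 18.6 CPM in NICD_TCFWT, at 0.925, 0.345 and 0.218 CPM in NOTCHWT_TCFKO and at no more than 0.0233 CPM in the other 6 libraries (-5.71 ± 0.59, adjusted p = 0.00146). Cma1, the chymase, was at 41.8, 23 and 16.1 against 1.03, 0.212 and 0.194 CPM without passing (-5.81 ± 1.76, adjusted p = 0.109). Prss34, a basophil protease, lay the other way, at 7, 7.48 and 7.01 against 24.5, 187 and 14.8 CPM, also without passing (3.39 ± 1.15, adjusted p = 0.141). Over the 12 mast cell and basophil genes 1 fell and 0 rose in edgeR, and 2 lay on each side at an unadjusted p under 0.05. DESeq2 called 1 higher and 2 lower, and limma-voom 0 higher and 2 lower. Their median log2 fold change was 0.18 over 11 tested, and they summed to 952, 1020 and 966 CPM in NICD_TCFWT and 1000, 1210 and 1070 CPM in NOTCHWT_TCFKO.

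The other lower genes chosen by size had little in common by function, and they fell into sets by their level in the other groups. Klk1b22, a kallikrein protease, was at 15.3, 12.9 and 22.9 CPM in NICD_TCFWT and had 0 counts in all 3 libraries labelled NOTCHWT_TCFKO, at least 221-fold lower against a floor of 3 counts per library, which covers counting error only (adjusted p = 0.000316). The other 6 libraries held 7.14 to 27.5 CPM. Prss41, a serine protease, was at 7.82, 4.55 and 5.9 against 0.106, 0.0531 and 0.194 CPM (-5.64 ± 0.46, adjusted p = 9.44e-05), Clip4, a microtubule linker, at 11.8, 6.3 and 8.31 against 1.03, 0.292 and 1.5 CPM (-3.21 ± 0.50, adjusted p = 0.0073), and Ceacam16 and the pseudogene BC002163 changed by -2.78 ± 0.38 and -3.56 ± 0.30. All 5 were lower in NOTCHWT_TCFKO than in each of the other 9 libraries. In an edgeR fit of the 6 libraries alone Clip4 did not pass (adjusted p = 0.0501). Klk1b22 belongs to a family of close paralogs, so reads shared with them could be split in the counting.

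Another set was high in both groups labelled NICD and low in both labelled NOTCHWT. Zfp990, a zinc finger gene, was at 101, 91.4 and 103 CPM in NICD_TCFWT, 67.1, 73.4 and 108 CPM in NICD_TCFKO, 0.211, 0.292 and 0.655 CPM in NOTCHWT_TCFKO and 0.49, 0.0992 and 0.513 CPM in NOTCHWT_TCFWT (-7.96 ± 0.45, adjusted p = 1.36e-05). Rps3a3, a processed pseudogene of a ribosomal protein gene that lies within Pde4d, was at 389, 314 and 445 against 18.7, 23.7 and 24.8 CPM (-4.10 ± 0.20, adjusted p = 2.55e-06), with 294 to 473 CPM in NICD_TCFKO and 18.8 to 19.2 CPM in NOTCHWT_TCFWT. BC018473, annotated as antisense, was at 37.2, 17.2 and 56.1 CPM against 0 counts, at least 477-fold lower, with 94.7 to 137 CPM in NICD_TCFKO. Zfp534, another zinc finger gene, Gdpd3, a lysophospholipase, and St6galnac2, a sialyltransferase, were split in the same way and changed by -4.01 ± 0.33, -4.67 ± 0.60 and -3.09 ± 0.43 (edgeR adjusted p = 9.87e-05, 0.00314 and 0.00396). Each of the 6 libraries labelled NICD lay above each of the 6 labelled NOTCHWT for all of these genes. In limma-voom Gdpd3 and St6galnac2 did not pass (adjusted p = 0.0546 and 0.127). Reads of Zfp990, Zfp534 and Rps3a3 may be shared with near-identical copies, and their levels are uncertain to that extent.

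Counted over all called genes, 86 of the 246 lower genes and 34 of the 214 higher genes were split by the NICD and NOTCHWT labels, which coincide with the gate, so that the 6 libraries of one label lay beyond the 6 of the other. A split by the TCFWT and TCFKO labels held for 9 lower and 16 higher genes. The libraries labelled NOTCHWT_TCFKO lay below the other 9 for 127 lower genes and above them for 131 higher genes. Those labelled NICD_TCFWT lay above the other 9 for 58 lower genes and below them for 61 higher genes. A gene can count in more than 1 of these patterns, as Zfp534 does. These are counts among genes selected by the contrast, and no test was made of them.

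Position and type of gene differed between the directions, a description chosen after the values were seen. Pseudogenes made up 44 of the 246 lower genes (17.9%) and 3 of the 214 higher genes (1.4%), beside 7.83% of all tested genes. Rps15a-ps8 (34 CPM in NICD_TCFWT and 0.0353 CPM in NOTCHWT_TCFKO on average) and Rps13-ps1 (85.5 and 0.882 CPM) were among them; both are copies of ribosomal protein genes and share sequence with their parents. Protein-coding genes made up 96.3% of the higher and 74% of the lower genes, beside 82.7% of those tested. On chromosome 4, 38 of 1053 tested genes were lower (3.61%, beside 1.54% over all chromosomes) and 15 higher (1.42%). Of the 38 lower genes 33 started beyond 100 Mb (mm10), where 663 genes were tested and 6 were higher. Beyond Zfp990 and Zfp534 they include Slc5a9, a sugar transporter with 0 counts in NOTCHWT_TCFKO (at least 25.5-fold lower), Zfp985 (-1.73 ± 0.18, adjusted p = 0.000413), Ttc4 (-0.94 ± 0.13, adjusted p = 0.00242), Acot11, an acyl-CoA thioesterase (-1.15 ± 0.15, adjusted p = 0.00242), and Agrn, the basement membrane proteoglycan agrin (-0.77 ± 0.07, adjusted p = 0.000247). Of these 33 genes 15 were split by the NICD and NOTCHWT labels and 12 were lower in NOTCHWT_TCFKO than in all 9 others.

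**Figure D5:**
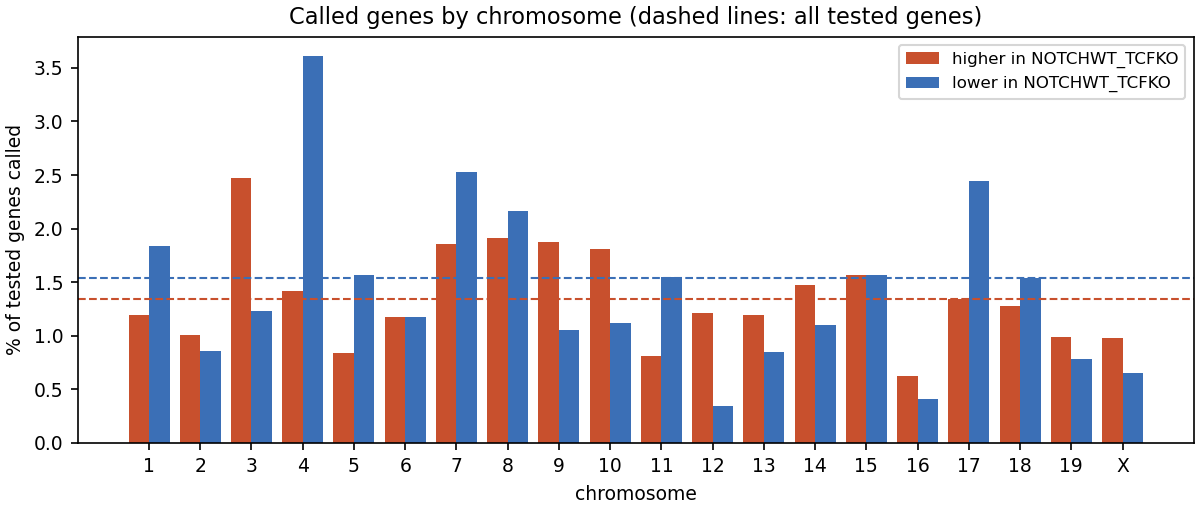
Share of the tested genes of each chromosome that were called higher (red) or lower (blue) in libraries labelled NOTCHWT_TCFKO; dashed lines mark the shares over all tested genes (1.34% and 1.54%). Chromosome 4 has the highest share of lower genes (3.61%), and the Y chromosome, with 5 tested genes and 0 called, is not drawn.

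The remaining lists held few or no calls. Of 30 cell cycle and DNA replication genes 0 were called in edgeR or limma-voom, DESeq2 called 6 higher, and 7 were higher and 1 lower by the unadjusted p (under 0.05); Ccna2, a cyclin of S phase and mitosis, was at 197, 217 and 162 against 297, 333 and 228 CPM (0.57 ± 0.16, adjusted p = 0.0716). The groups did not overlap for Ccna2, and without NOTCHWT_TCFKO 3 edgeR called 6 genes of this list higher. Granulocyte and monocyte fate factors, dendritic cell and MHC class II genes and megakaryocyte genes had 0 calls in edgeR each. At an unadjusted p under 0.05 they had 2, 2 and 2 higher and 1, 2 and 2 lower genes. DESeq2 called 1, 1 and 1 of them higher and 1, 1 and 0 lower, and limma-voom called 1 lower gene in the first. Among 18 Hoxa and Hoxb genes 0 were called in edgeR, DESeq2 or limma-voom, and at an unadjusted p under 0.05 there were 3 lower and 0 higher genes (median -0.36). Stromal and endothelial genes, cytokine receptors, Myc and ribosome biogenesis genes, CDK inhibitors and quiescence genes, p53 targets, immediate-early genes, imprinted genes and the sex-linked genes had 0 calls in edgeR as well. At an unadjusted p under 0.05 they had 3, 2, 1, 3, 3, 1, 0 and 0 higher and 1, 2, 0, 0, 1, 0, 1 and 0 lower genes in that order. DESeq2 called 1, 2, 0, 1, 2, 0, 0 and 0 of them, all higher, and limma-voom 1 stromal gene. Of the 10 tested stromal and endothelial genes 3 passed the low-count filter only through the libraries labelled NOTCHWT_TCFKO.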

How the data were processed

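RNA-seq of sorted LSK cells was analysed in 12 samples, of which 6 form the comparison. The authors deposited raw counts per Ensembl gene for 39017 genes, per sample and as a series table equal in every cell. The notes of the submitters name featureCounts 1.4.4 and HISAT2 with mm10, then edgeR 3.28.0 and limma, and for the reads cutadapt 1.9.1 and bcl2fastq 2.17 (per the submitters' processing notes, which give no roles); whether strand was counted is not given in the sources used here. The deposited log2 table was not used. Symbols came from GENCODE M21 (37607 matched).

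Counts were scaled by TMM, filtered by filterByExpr by group (16024 genes) and fitted in edgeR 4.0.16 (R 4.3.3) with 1 mean per group over all 12 libraries; the two-sided quasi-likelihood test (robust) gave p-values, which were adjusted over all tested genes by Benjamini and Hochberg. SE is the log2 fold change over the square root of F. A list is described by its called members; the members and lists were chosen with earlier results of these data known. Named by rule are Tcf7, Notch1 and Dtx1, the 12 higher and 12 lower genes of largest change (called in the fit and without each of the 6 libraries, at least 5 CPM in the higher group, no overlap; no predicted genes, Rik clones, pseudogenes ending in -ps, receptor segments or sex-linked genes) and up to 6 members per list with the smallest p. Further named genes were chosen after their values were seen: Gt(ROSA)26Sor, Setd5, Thumpd3, Timd4, Slc40a1, Elane, Mpo, Kit, Flt3, Spi1, Rps15a-ps8, Rps13-ps1 and those of chromosome 4. The fit was tested on simulated counts. Some results are not reported here.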

Additional observations from a re-analysis of the deposited data

How the results depend on the processing

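The 214 higher and 246 lower calls became 918 and 737 in DESeq2 1.42.0, which included 212 and 246 of them, and 422 and 380 with a covariate for Y-linked counts. With a replicate block they became 132 and 159. Same-numbered libraries deviated from their group means with correlations of 0.0732, -0.277 and -0.404, and 0 of 6 libraries correlated best with their own number. These values showed no pairing by number, but deviations from means of 3 libraries cannot exclude one. With 1 library left out the calls ranged from 65 to 1097 higher and from 96 to 968 lower. RLE size factors, no low-count filter, a filter of at least 1 CPM in 3 samples, the 6 libraries alone, limma-voom 3.58.1, a covariate for library sheets inferred from the titles and leaving out Xist and Y-linked genes gave 171 to 261 higher and 171 to 257 lower calls. The inferred sheets, which the labels do not give, set NICD_TCFWT 3 apart from the rest of the 6 libraries. Of the 55 called genes followed through every alternative, 0 changed direction, 55 stayed called without NOTCHWT_TCFKO 3 and 35 without NICD_TCFWT 2, and with the replicate block 7 were lost. The median log2 fold change of all genes lay between -0.013 and 0.01 under every setting. Genes near the floor of 3 counts per library could not be resolved. The common biological coefficient of variation of 0.299 with 3 libraries a group limits calls of small changes.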
